A study of Homo sapiens with 6 samples.

Results

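Ribosome footprints on 10 genes known for control by upstream open reading frames (uORFs) were examined in control and N6AMT1-depleted K562 cells. The genes were IFRD1, ATF4, ATF5, DDIT3, PPP1R15A, PPP1R15B, IBTK, SLC35A4, CEBPB and CEBPG, 10 of the 19330 genes in the count table. All 10 were found in the table by symbol, and 8 of them had enough counts to be tested among 9202 genes. IFRD1, ATF4 and DDIT3 were selected on their measured fold changes between these same libraries, which were known when the list was made, so their values are given as a description with no test. The other 7 were listed for uORFs described elsewhere, but with the results of this comparison at hand. Their p-values therefore place each gene among the 9202 genes tested and lend no weight to the list.

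K562 is a human chronic myelogenous leukemia cell line with erythroid features. A lentiviral CRISPR/Cas9 vector brought in a guide against N6AMT1 (sgN6AMT1) or guides against olfactory receptor genes, named OR11A1 and OR2M49 in the labels (sgCtrl), and which control guide each sgCtrl library carried is not stated. Both groups received puromycin for 48 h and were analysed 10 days after infection, with 3 independent transductions per group. N6AMT1 methylates eRF1, the factor that ends translation at stop codons, and the cells were a transduced population, not a clone. Ribosome profiling (Ribo-Seq) counts the mRNA fragments that ribosomes protect from nuclease. Footprints of N6AMT1 fell from 12.5 to 4.20 CPM (counts scaled to an adjusted library size of 1000000; log2 fold change -1.51, SE 0.31, edgeR adjusted p 6.69e-05).

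The libraries held between 1821356 and 2969736 counts, so that 1 count was worth 0.345 to 0.543 CPM. Replicates differed by more than counting noise, with a chi-square per degree of freedom of 1.25 to 1.68, and libraries of unlike groups by 4.89 to 7.04. The fetal globins HBG1 and HBG2, which mark K562 cells, had 9553 and 9920 CPM in sgCtrl, and the lymphoid genes CD3E and MS4A1 stayed under 1 CPM on average in both groups. The liver gene ALB had 0.397 CPM in sgCtrl and 2.57 CPM in sgN6AMT1, APOA1 had 0.282 and 0 CPM, and none of these 4 genes had enough counts to be tested. Of the 8 K562 markers tested, GATA1, TFRC and KLF1 were lower and TAL1 was higher in sgN6AMT1, and the part of these shifts in the results was not tested. A gene's footprints depend on the amount of its mRNA, on the ribosomes per mRNA and on the share of cells that express it, and these cannot be told apart in such counts.

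A uORF is a short reading frame that starts at an AUG in the leader, the stretch of mRNA before the coding sequence (CDS). To reach the CDS, scanning ribosomes as a rule either pass the AUG of a uORF by leaky scanning or translate the uORF and then reinitiate. Stress kinases phosphorylate the initiation factor eIF2, which slows the delivery of initiator tRNA, and some mRNAs with uORFs, ATF4 above all, are then translated better while most others are translated less. This integrated stress response is reversed by a phosphatase whose subunits PPP1R15A and PPP1R15B are themselves under uORF control.

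The leaders were read from GENCODE release 44 on GRCh38, for the transcript that the table lists for each gene. IBTK, whose listed transcript was not matched, was read on its canonical transcript. These transcripts have 40 upstream AUGs in all, and a selection of starts and short ORFs is shown here. The distance, length and stop codon of a uORF set what a ribosome meets before the CDS. In each sequence, 5′ to 3′ on the gene's strand, capitals mark the start codon and, where the whole ORF is shown, the stop codon.
IFRD1 uORF start, chr7:112450478-112450495, plus strand: gagagaaacATGtatcgt
IFRD1 CDS start, chr7:112450680-112450697, plus strand: cgtcccacgATGccgaag
ATF4 uORF of 3 codons, chr22:39520648-39520659, plus strand: ATGgcgtatTAG
ATF4 CDS start, chr22:39521437-39521454, plus strand: caccgcaacATGaccgaa
ATF5 uORF of 3 codons, chr19:49929274-49929285, plus strand: ATGgctctgTAG
ATF5 CDS start, chr19:49930842-49930859, plus strand: gctacagccATGtcactc
DDIT3 start of the 34-codon uORF, chr12:57520472-57520489, minus strand: gagcgtatcATGttaaag
PPP1R15A start of the 26-codon uORF, chr19:48872545-48872562, plus strand: gagggtgagATGaacgcg
PPP1R15B uORF of 8 codons, chr1:204411664-204411690, minus strand: ATGgtgttgaagcgtcgagccgacTAG
IBTK uORF of 3 codons, chr6:82240817-82240828, minus strand: ATGgatattTAA
CEBPB start inside the CDS in another frame, chr20:50191054-50191071, plus strand: ggacccagcATGtctccc

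IFRD1 has 1 upstream AUG in a leader of 229 bases. It opens a uORF of 52 codons that ends in TGA 43 bases before the CDS. ATF4 has 6 upstream AUGs in a leader of 364 bases, and the 3-codon uORF shown above begins 292 bases before the CDS. A pair of ATF4 uORFs, of 63 and 50 codons, shares a TGA that overlaps the AUG of the CDS, seen as accgcaacaTGAccgaaa beside the CDS start printed above. ATF5 has a 3-codon uORF 246 bases before the CDS and a uORF of 59 codons that runs 56 bases into it. The 3-codon uORFs of ATF4 and ATF5 both have a purine at position -3, G right after the AUG, and a TAG stop.

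DDIT3 and CEBPG each have 5 upstream AUGs, PPP1R15A and PPP1R15B have 2 each, and SLC35A4 has 12 in a leader of 869 bases. IBTK has 5 in 540 bases, counted on the gene's canonical transcript because the transcript listed in the table was not matched to GENCODE. CEBPB has 0 in its leader of 204 bases, and its small ORF of 11 codons lies inside the annotated CDS, ending 4 bases before the in-frame AUG at codon 24, from which a shorter protein can be made. Of the 40 upstream AUGs, 37 open ORFs that end within the leader and 3 open ORFs that overlap the CDS, with lengths of 1 to 63 codons. A purine at -3 together with G at +4, the context that favours initiation, surrounds 10 of them, and 1 of the 10 CDS starts, that of PPP1R15B.

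These counts depend on the transcript. On GENCODE's canonical transcripts ATF4 has 3 upstream AUGs with a longest uORF of 59 codons, DDIT3 has 3, CEBPG has 1 and SLC35A4 has 11 with a longest of 103 codons. By the listed transcripts, with the canonical one for IBTK, 9 of the 10 genes have at least 1 upstream AUG. The share is 39.4% among 8587 tested genes with a complete CDS. At least 5 are found in 5 of the 10 genes, against 5.39% of the tested genes. On canonical transcripts ATF4, DDIT3 and CEBPG have fewer than 5. The median leader of the 10 genes is 368 bases long, against 125 bases. The genes were listed for their uORFs, so this describes the choice. Their CDS end in TAG in 7 genes, TGA in 3 and TAA in 0, where the tested genes end in TAG in 21.2%, TGA in 49.1% and TAA in 29.7%.

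**Figure D1:**
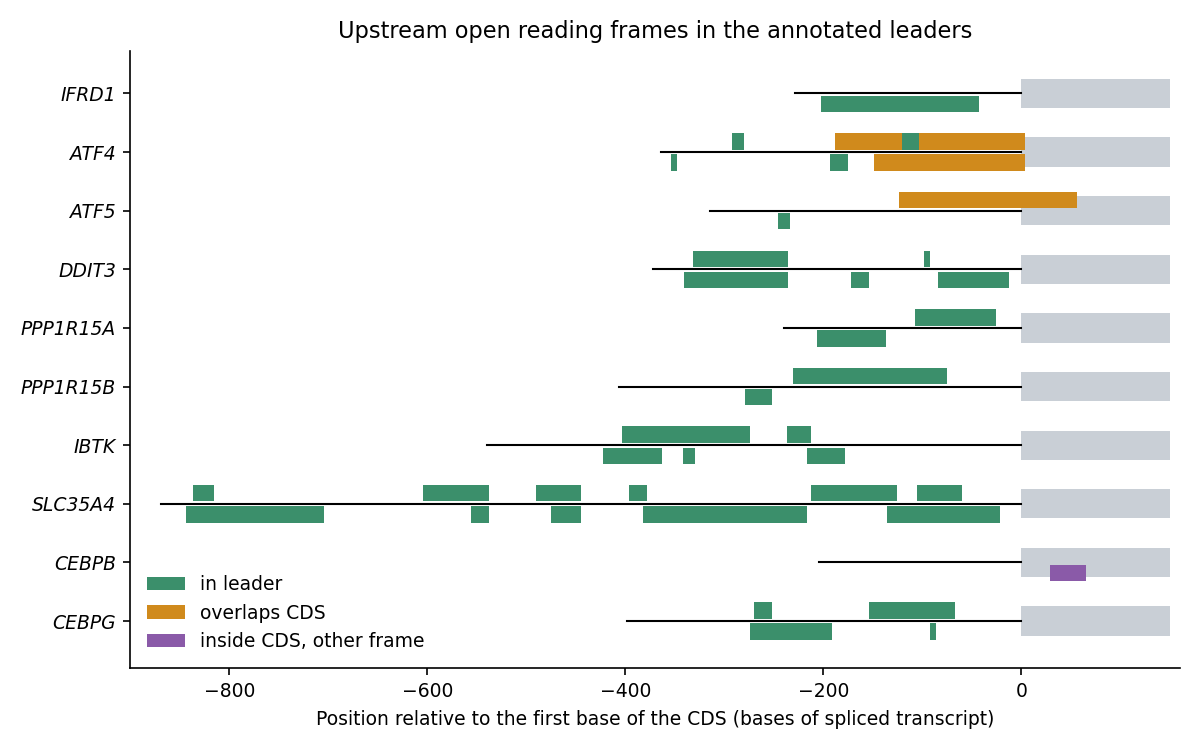
Positions of upstream ORFs in the leaders of the 10 genes, in bases of spliced transcript relative to the first base of the CDS; lines are leaders, grey boxes the first part of the CDS, green boxes ORFs that end in the leader, orange boxes ORFs that overlap the CDS and the purple box the ORF inside the CDS of CEBPB. IBTK is drawn on its canonical transcript, and SLC35A4 has the longest leader, at 869 bases.

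Mean IFRD1 footprints were 3.0-fold lower in sgN6AMT1 and those of ATF4 were 1.46-fold higher. IFRD1, ATF4 and DDIT3 were chosen on these values, so nothing is read from their directions. The ATF4 relative ATF5 fell, as did the phosphatase subunit PPP1R15A and IBTK, whereas PPP1R15B, CEBPB and CEBPG did not pass the test. DDIT3 was lower in all 3 sgN6AMT1 libraries, at counts too small to be tested.

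Over all 9202 genes, 26.9% passed an adjusted p of 0.05 by edgeR's quasi-likelihood test, 13.9% lower and 12.9% higher. The values of the groups did not overlap for 37.5% of genes. Among the 6 tested genes other than IFRD1 and ATF4, 3 were lower, 0 were higher and 3 did not pass, and 4 had no overlap between the groups. With DESeq2 1 of the 6, ATF5, passed. The median log2 fold change of all 8, IFRD1 and ATF4 included, was -0.28, with a range of -1.61 to 0.53, against 0.0063 for all genes tested. Because the list was made with this contrast known, nothing is read from these shares. Together the 10 genes took 0.0259%, 0.0266% and 0.0287% of counts in sgCtrl and 0.0237%, 0.0218% and 0.0221% in sgN6AMT1.

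IFRD1 encodes a transcriptional co-regulator, and its uORF is known to tie the stability of its mRNA to translation. The sgCtrl libraries held 93, 191 and 136 IFRD1 counts and the sgN6AMT1 libraries 42, 42 and 43. This gave 46.7, 65.8 and 67.0 CPM in sgCtrl and 18.4, 18.1 and 23.3 CPM in sgN6AMT1. All sgN6AMT1 values lay below all sgCtrl values, and sgCtrl replicate 1 was the lowest of its group. Mean levels were 59.9 ± 11.4 and 20.0 ± 2.93 CPM (SD, n = 3 each). The log2 fold change of -1.61 (SE 0.15) was rank 15 from the lowest of 9202 genes and lay between -1.75 and -1.53 in 16 other settings of the analysis.

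**Figure D2:**
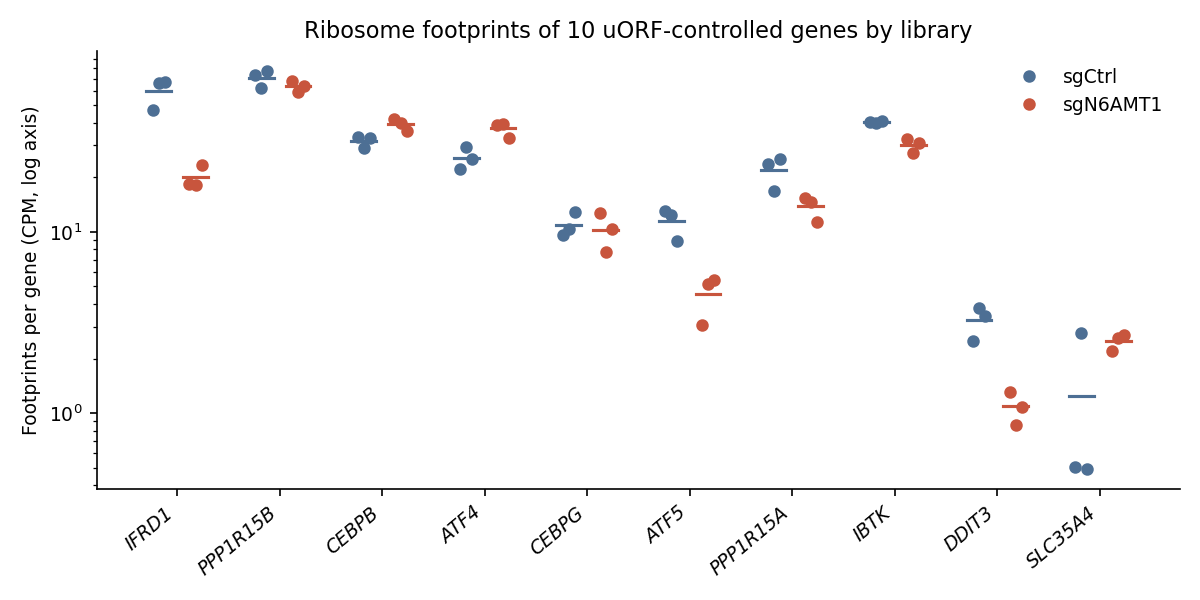
Footprints per gene in CPM on a log axis for the 10 genes; points are the 3 sgCtrl (blue) and 3 sgN6AMT1 (red) libraries and bars the group means, with genes ordered by their sgCtrl level per kilobase of CDS. IFRD1, ATF5, PPP1R15A, IBTK and DDIT3 have all sgN6AMT1 points below all sgCtrl points, and ATF4 and CEBPB have them above. IBTK is placed by the CDS length of its canonical transcript.

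ATF4 is the transcription factor at the centre of the integrated stress response. It had 22.1, 29.3 and 25.1 CPM in sgCtrl and 39.0, 39.3 and 33.1 CPM in sgN6AMT1. All sgN6AMT1 values lay above all sgCtrl values. The mean went from 25.5 ± 3.62 to 37.1 ± 3.50 CPM (SD, n = 3 each). On the log2 scale this was 0.53 (SE 0.15), rank 787 from the highest of 9202.

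ATF5 is a stress factor of the same bZIP family whose leader has the ATF4 arrangement of a short first uORF and a longer overlapping one. Its counts were low, at 26, 36 and 18 in sgCtrl and 7, 12 and 10 in sgN6AMT1. In CPM these were 13.1, 12.4 and 8.87 against 3.07, 5.18 and 5.43, with no overlap. ATF5 fell, with means of 11.4 ± 2.25 and 4.56 ± 1.30 CPM (SD, n = 3 each). By edgeR the log2 fold change was -1.35 (SE 0.31, adjusted p 0.000288), rank 28 from the lowest of 9202. ATF5 lay on the opposite side from ATF4, which was chosen on its value. On the listed transcripts both have a 3-codon uORF and a later one overlapping the CDS. Their leaders differ otherwise, with 6 upstream AUGs in ATF4 and 2 in ATF5, and overlaps of 4 and 56 bases. Whether the layout plays a part was not tested.

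DDIT3, also called CHOP, is a bZIP factor that ATF4 induces under lasting stress. Only 5, 11 and 7 counts fell on it in sgCtrl and 3, 2 and 2 in sgN6AMT1, or 3.25 ± 0.663 and 1.09 ± 0.225 CPM (SD, n = 3 each). The pooled counts of 23 and 7 gave a ratio of sgN6AMT1 to sgCtrl, scaled to library size, of 0.339. Each sgN6AMT1 library was below each sgCtrl library, and the filter on low counts removed the gene. At this depth DDIT3 rests on 30 counts in all.

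CEBPB and CEBPG are bZIP partners of ATF4. CEBPB had 33.2, 29.0 and 33.0 CPM in sgCtrl and 42.1, 39.7 and 35.8 CPM in sgN6AMT1. The groups did not overlap, and the log2 fold change of 0.33 (SE 0.14) did not pass the threshold (edgeR adjusted p 0.0695). CEBPG had 9.54, 10.3 and 12.8 CPM in sgCtrl and 12.7, 7.78 and 10.3 CPM in sgN6AMT1, overlapping widely. Its log2 fold change was -0.081 (SE 0.25, edgeR adjusted p 0.857), and the sign turned without sgCtrl replicate 3 (0.031) or without sgN6AMT1 replicate 2 (0.099).

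PPP1R15A (GADD34) is the stress-induced subunit that brings protein phosphatase 1 to eIF2, and PPP1R15B (CReP) is the constitutive one. PPP1R15A had 23.6, 16.9 and 25.1 CPM in sgCtrl and 15.3, 14.7 and 11.4 CPM in sgN6AMT1. Its mean fell from 21.9 ± 4.39 to 13.8 ± 2.11 CPM (SD over 3 libraries; log2 fold change -0.61, SE 0.20, edgeR adjusted p 0.0168) without overlap of the groups. This call was lost without sgCtrl replicate 1 (adjusted p 0.0591), sgCtrl replicate 3 (0.0951) or sgN6AMT1 replicate 3 (0.0782), and also with DESeq2 (0.142) or after thinning every library to the smallest total (0.140). PPP1R15B had 73.3, 62.1 and 77.4 CPM in sgCtrl and 67.5, 59.2 and 64.1 CPM in sgN6AMT1, which overlapped (log2 fold change -0.14, SE 0.11, edgeR adjusted p 0.369). Whether the changes of PPP1R15A and PPP1R15B differ from each other was not tested.

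IBTK encodes an inhibitor of Bruton's tyrosine kinase. Its sgCtrl values of 40.2, 39.99 and 40.9 CPM were the tightest of the 10 genes, and the sgN6AMT1 values of 32.4, 27.2 and 30.9 CPM were all below them. The sgCtrl values rest on 80, 116 and 83 counts, so their small SD overstates how precisely IBTK was measured. Its mean fell from 40.4 ± 0.489 to 30.2 ± 2.69 CPM (SD over 3 libraries; log2 fold change -0.42, SE 0.14, edgeR adjusted p 0.0163). The call was lost without sgN6AMT1 replicate 2 (adjusted p 0.114) and with DESeq2 (0.165). SLC35A4, a member of the nucleotide-sugar transporter family, is known for a conserved uORF that is itself translated. Its sgCtrl libraries had 1, 8 and 1 counts and its sgN6AMT1 libraries 5, 6 and 5, which overlap. The pooled counts of 10 and 16 gave a scaled ratio of 1.78 (exact 95% interval 0.761 to 4.40, counting error only), so no difference was detectable at this depth.

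**Figure D3:**
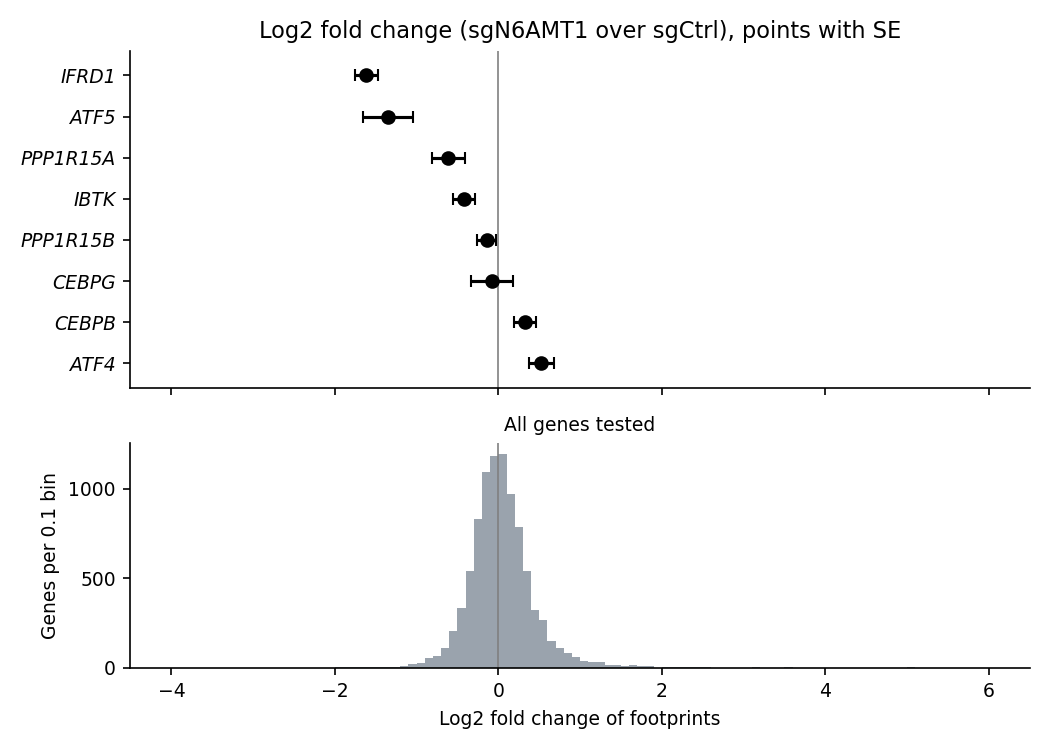
Upper panel, log2 fold change of footprints (sgN6AMT1 over sgCtrl) with its SE for the 8 genes with enough counts; lower panel, the number of genes per bin for all 9202 genes tested, on the same axis. The 8 genes run from -1.61 for IFRD1 to 0.53 for ATF4, and the median of all genes is 0.0063.

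Divided by the length of the CDS, the footprints give levels that can be set against each other. For IBTK the length is that of the canonical transcript, since its listed transcript was not matched. Its level, its rank and its overlap with neighbours are therefore uncertain. In sgCtrl the order of CPM per kilobase was IFRD1 (44.3 ± 8.43), PPP1R15B (33.2 ± 3.72), CEBPB (30.6 ± 2.31), ATF4 (24.2 ± 3.43), CEBPG (24.2 ± 3.79), ATF5 (13.5 ± 2.66), PPP1R15A (10.8 ± 2.17), IBTK (9.94 ± 0.120), DDIT3 (5.65 ± 1.15) and SLC35A4 (1.29 ± 1.34; SD, n = 3 each). The values of neighbours in this order did not overlap for CEBPB and ATF4, CEBPG and ATF5, IBTK and DDIT3, and DDIT3 and SLC35A4, and the other neighbours overlapped. In sgN6AMT1, CEBPB (37.9 ± 3.05) and ATF4 (35.3 ± 3.32) came first, with overlapping values, and IFRD1 (14.8 ± 2.16) was at rank 5. ATF5 (5.39 ± 1.53) moved from rank 6 to rank 8 and DDIT3 (1.89 ± 0.391) to rank 10, behind SLC35A4 (2.57 ± 0.281). Footprints on a uORF or in the leader would count toward these levels if the table counts whole transcripts, which the sources used here do not settle. Even if only the CDS is counted, footprints on the CEBPB ORF inside it and on the overlapping end of an ATF5 uORF could count.

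**Figure D4:**
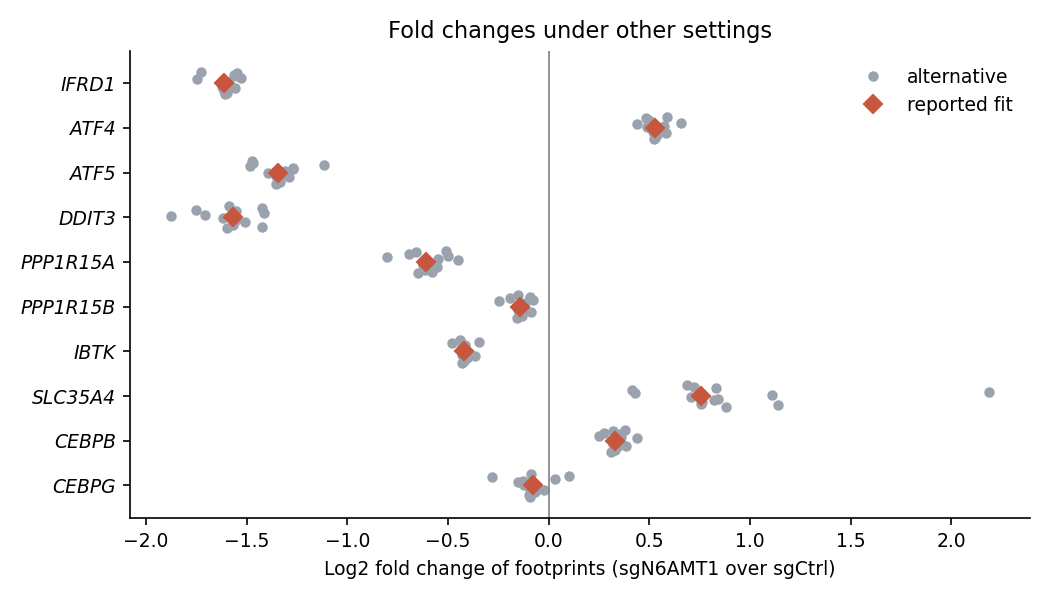
Log2 fold change (sgN6AMT1 over sgCtrl) of each gene in the reported fit (red diamonds) and under the alternative settings (grey points); for DDIT3 and SLC35A4 the reported fit is the one without the filter on low counts. CEBPG is the gene whose points lie on both sides of 0, and SLC35A4 has the widest range, from 0.41 to 2.19.

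Across the 8587 tested genes with an annotated complete CDS, upstream AUGs went with small differences in footprints. The median log2 fold change was -0.0018 for 5203 genes with 0 upstream AUGs, 0.023 for 1588 genes with 1, 0.041 for 750 genes with 2 and 0.034 for 1046 genes with 3 or more. The share of genes past the threshold and lower was 15.8% with 0 and 9.46% with 3 or more, and the share higher was 13.1% and 12.4%. Such shares also depend on the counts per gene, for which the classes were not matched. The quartiles of the class with 1 upstream AUG were -0.18 and 0.25. IFRD1 belongs to this class but was chosen for its fold change, so nothing is read from its place outside them. By CDS stop codon the medians were -0.0052 for TAA, 0.027 for TAG and 0.0089 for TGA. IFRD1, ATF4 and ATF5 all end in TAG and spanned -1.61 to 0.53, but IFRD1 and ATF4, the ends of this span, were chosen on these values.

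The machinery around these genes was described with lists made for this account, to be read beside the 26.9% of all tested genes past the threshold (13.9% lower and 12.9% higher). Of 7 tested genes that sense stress upstream of eIF2, 1 rose and 2 fell, with a median log2 fold change of -0.061. The heme-sensing kinase EIF2AK1 rose from 92.2 to 128 CPM (log2 fold change 0.45, edgeR adjusted p 4.65e-05), whereas the mitochondrial protease OMA1, which relays mitochondrial stress to it, fell from 32.8 to 22.9 CPM (-0.53, adjusted p 0.00766). GCN1, a partner of the amino acid sensor EIF2AK4, fell by 0.17 on the log2 scale (adjusted p 0.0222). With DESeq2 neither OMA1 nor GCN1 passed. Of 10 subunits and partners of eIF2 and its exchange factor eIF2B, 3 fell and 0 rose (median -0.11), or 30% called, near the 26.9% of all genes. The largest of these was EIF2B3, from 193 to 119 CPM (-0.70, adjusted p 1.43e-12), with EIF2B1 at -0.31 and EIF2S3 at -0.24.

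Factors that select start sites went in both directions, with 2 of 10 higher and 4 lower (median -0.11; 60% called, against 26.9% of all genes). EIF5, which promotes start codon recognition, rose from 172 to 237 CPM (0.45, edgeR adjusted p 2.07e-07), and EIF1B rose as well (0.35). EIF1AX (-0.37), DDX3X (-0.36), EIF5B (-0.29) and ABCF1 (-0.22) fell. Among 8 factors of reinitiation, 4 fell and 0 rose (median -0.16), or 50% called against 26.9% of all genes. The list holds 5 subunits of eIF3, and those that fell were EIF3B (-0.32), EIF3A (-0.21), EIF3C (-0.17) and EIF3H (-0.16). The other eIF3 subunit, EIF3G, and EIF2D did not pass (-0.10 and -0.27, adjusted p 0.235 and 0.0825), and neither did DENR and MCTS1 (-0.071 and -0.012, adjusted p 0.708 and 0.924). Without sgN6AMT1 replicate 2, 1 of these 8 genes passed. Genes with more counts pass at smaller changes, and a mean of at least 50 counts kept all 10 and all 8 genes of these lists. With that filter 1973 of 5874 genes passed, and 7 of the 10 and 4 of the 8 did. Of 4 partners of the PPP1R15 subunits, the catalytic subunit PPP1CB rose (0.34, adjusted p 0.000128) and 3 did not pass, or 25% called.

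Among 13 tested bZIP partners and feedback genes of the stress response, 5 rose and 0 fell (median 0.14), or 38.5% called, where 26.9% of all genes were called and 12.9% were higher. JUN rose from 22.4 to 62.6 CPM (1.51, edgeR adjusted p 7.60e-16), ATF3 from 5.51 to 11.9 CPM (1.08, adjusted p 0.00224), CEBPD by 0.88 and the ATF4 target SESN2 by 0.37. ATF6 (0.23) was the remaining one. The ATF4 targets CHAC1, TRIB3 and DDIT4 had log2 fold changes of 0.51, -0.16 and 0.12 and did not pass (adjusted p 0.109, 0.380 and 0.228). Without sgCtrl replicate 2, or without sgN6AMT1 replicate 3, 2 of the 13 passed, and with DESeq2 1 of 17 did.

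Of 9 other tested genes with known uORFs, 3 rose and 1 fell (median 0.083), or 44.4% called against 26.9% of all genes. The polyamine genes SAT1 and AMD1 rose by 1.44 and 0.96 on the log2 scale (edgeR adjusted p 0.00018 and 3.55e-07), EIF5 is the third, and EPRS fell (-0.23). AZIN1, also a polyamine gene of this list, did not pass (0.19, edgeR adjusted p 0.239), and its values overlapped. SAT1 counts were low, at 10, 14 and 4 in sgCtrl and 26, 23 and 22 in sgN6AMT1. AMD1, whose uORF responds to polyamines, had 15.1 to 25.1 CPM over the sgCtrl libraries and a mean of 41.6 CPM in sgN6AMT1. Of 9 genes, which are IFRD1's paralog IFRD2 and factors of nonsense-mediated mRNA decay, SMG1 fell from 100.03 to 73.3 CPM (-0.45, adjusted p 0.000238), UPF3B rose (0.38, with overlapping values) and 7 did not pass. The 22.2% called are below the 26.9% of all genes. IFRD2 had a log2 fold change of -0.33 (adjusted p 0.103), and its values overlapped. EIF5B, ABCF1, ATF6, UPF3B and the genes given here as not past the threshold were named after their values had been seen.

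**Figure D5:**
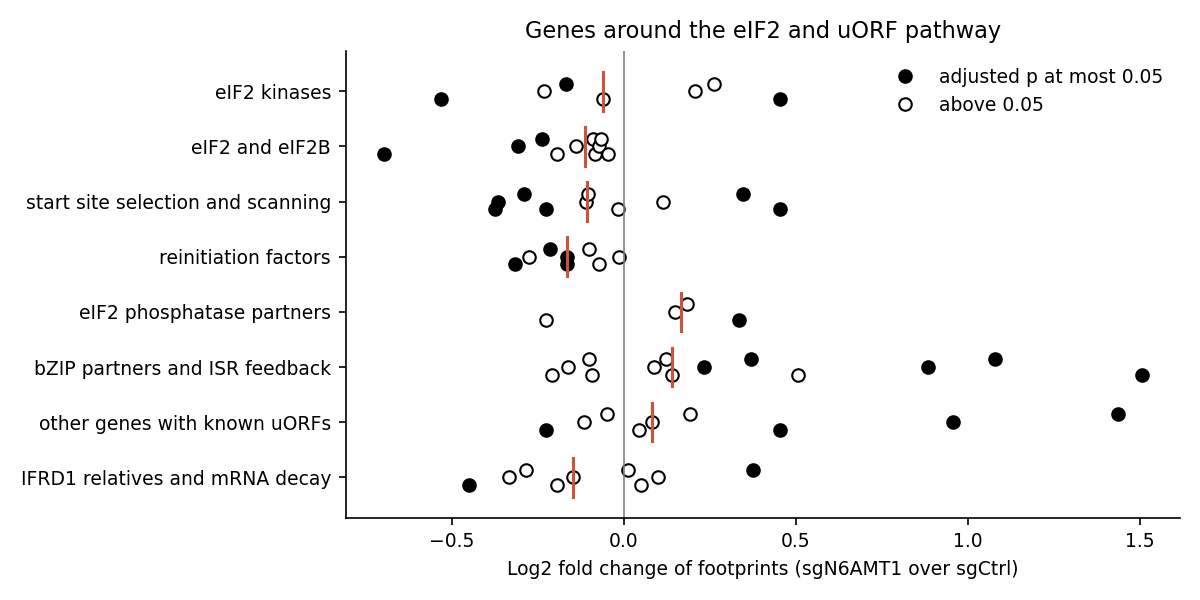
Log2 fold change (sgN6AMT1 over sgCtrl) of the tested genes in 8 lists around eIF2 and uORF control; filled points passed an adjusted p of 0.05, open points did not, and red lines are list medians. The eIF2 and eIF2B list and the reinitiation list have no filled point above 0, and the bZIP list has none below 0.

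The genes whose log2 CPM followed IFRD1 most closely over the 6 libraries, among 7803 genes with at least 10 CPM on average, were CHAF1B (Pearson r 0.997) and CLNS1A (0.996), with a gene listed under a clone name between them. For ATF4 they were TPMT (0.995), ZKSCAN3 (0.991) and MLLT11 (0.991). The points share 6 libraries in 2 groups, and an r of 0.95 or more was reached by 242 genes for IFRD1 and 98 for ATF4, so the names carry little weight as a ranking.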

How the data were processed

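Ribo-Seq counts of 3 sgCtrl and 3 sgN6AMT1 libraries were used. The authors trimmed reads with cutadapt, mapped them to GRCh38 with HISAT2, removed rRNA and tRNA, and mapped the rest to canonical transcripts with bowtie2. The deposited values are raw footprint counts per transcript, and it is not stated whether they are P-sites summed over the CDS or overlaps with the gene annotation. Use of molecular identifiers is not described in the methods. The interval given for SLC35A4 comes from pooled counts and covers counting error only. RNA-Seq was not analysed here, so translational efficiency was not either.

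Counts were tested with edgeR 4.0.16 (R 4.3.3): filterByExpr (minimum count 10; 9202 genes kept, 0.465% of counts removed), TMM factors, the robust quasi-likelihood F test, 2-sided, and Benjamini-Hochberg adjustment over all genes at 0.05. The script was tested on simulated data. Leaders were matched by transcript identifier to GENCODE release 44 (17537 of 19330, 90.7%). DELE1 was found under its older symbol KIAA0141. EIF4G2 and CD79A were not analysed here.

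The 10 genes and the lists were chosen with earlier results of these data known. Genes named in a list were at most 4 past the threshold, without overlap and with the largest fold change. Likeness was Pearson's r of log2 CPM (prior count 2). Alternatives were DESeq2 1.42.0, limma-voom (limma 3.58.1), other scalings and filters, CDS length and GC trends removed, thinning, a replicate block and leaving out each library. The unfiltered values of DDIT3 and SLC35A4 and the counts of genes called among the 10 were added after the data were seen.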

Additional observations from a re-analysis of the deposited data

How the results depend on the processing

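ATF5 and PPP1R15B kept their direction and their side of the threshold in all settings that gave them a value (15 and 16). ATF5 ranged from -1.48 to -1.12. With DESeq2, 1329 genes passed in place of 2473, PPP1R15A (-0.65) and IBTK (-0.43) lost their calls, and 2 of the 10 genes were called lower and 0 higher in place of 4 and 1. These counts include IFRD1 and ATF4, which were chosen on these values, so nothing is read from them. PPP1R15A (-0.45) also lost its call after thinning to the smallest library. CEBPB passed with total counts (0.38), a mean of at least 50 counts (0.35) and thinning (0.44), which made 2 genes called higher in each, and the filter at 50 left 2 called lower. As a description with no test, ATF4 had 0.52 with DESeq2, and DDIT3 had -1.57 without the filter, -1.42 with limma-voom, -1.62 with CDS length and GC trends removed and -1.87 with thinning. The causes were not tested. Leaving out 1 library gave -0.80 to -0.50 for PPP1R15A, -0.48 to -0.34 for IBTK and -0.28 to 0.099 for CEBPG. SLC35A4 reached 2.19 without sgCtrl replicate 2. IBTK has no value with trends removed, since its listed transcript was not matched.

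Total counts gave 1560 genes higher and 976 lower, or 38.5% lower in place of 51.8%. Among the lists, called genes went from 4 to 2 for reinitiation and from 1 to 3 for phosphatase partners with total counts, from 3 to 1 for eIF2 kinases and from 2 to 1 for IFRD1 relatives with DESeq2, and to 4 for IFRD1 relatives with trends removed. The mean of at least 50 counts left 3 bZIP genes and 3 phosphatase partners called. With the replicate block 2390 genes passed, and it changed no call among the 10 genes. Replicate numbers did not pair the libraries (r -0.061, 0.020 and 0.016). Depth limits DDIT3 and SLC35A4, at 30 and 26 counts over all libraries.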
